A study of Mus musculus with 16 samples.

Results

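Mgll and Cfap52 are 2 genes whose signal was higher in mouse two-cell embryos with a C3H maternal pronucleus than in embryos with a B6 one, both without and with the transcription inhibitor α-amanitin. They were chosen for exactly these differences, so the differences between the kinds of embryo are given as a description, with no test. Every probe set annotated to either symbol was read, 4 for Mgll and 2 for Cfap52, out of 45037 on the array. A probe set was tested where it reached the 40th percentile of its array on at least 4 arrays. This left 3 probe sets of Mgll and both of Cfap52, among 31953 probe sets and 15274 genes tested.

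Total RNA was measured on 16 one-colour oligonucleotide arrays, 4 in each of 4 groups. BBB embryos had B6 ooplasm and both pronuclei of B6 origin. BCB embryos also had B6 ooplasm and a B6 paternal pronucleus, while their maternal pronucleus was C3H. Arrays of each kind came from untreated embryos and from embryos treated with α-amanitin, which blocks RNA polymerase II and which the labels spell α-amantin. The stage, the ooplasm and the paternal pronucleus were thus shared by all groups. Neither dose and duration nor the number of embryos per array was given in the sources used here.

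Mgll encodes monoglyceride lipase, which splits monoacylglycerols into glycerol and a fatty acid. It performs the last step in the breakdown of stored triglyceride and degrades the endocannabinoid 2-arachidonoylglycerol. Cfap52 encodes a cilia and flagella associated protein with WD repeats that binds inside the doublet microtubules of motile axonemes. In early mouse embryos, new transcripts come from the zygotic genome, while transcripts already present come from the egg.

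The sequence just before the annotated start of each gene is shown because the pair was high and low in the same groups. Both genes were found in the RefSeq promoter table (GRCm38.p6), and each window is the 250 bases before the start, written 5′ to 3′ on the gene's own strand. RefSeq gives 2 starts for Mgll, of which the upstream one is shown. Its window lies at chr6:88724162-88724411 on the plus strand, and the Cfap52 window at chr11:67965643-67965892 on the minus strand. Capitals mark matches to motifs that were searched.
Mgll: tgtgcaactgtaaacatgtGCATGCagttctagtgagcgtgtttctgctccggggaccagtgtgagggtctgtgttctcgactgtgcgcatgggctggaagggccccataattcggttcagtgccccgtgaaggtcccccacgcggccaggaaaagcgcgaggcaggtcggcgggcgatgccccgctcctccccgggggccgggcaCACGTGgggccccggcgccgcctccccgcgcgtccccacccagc
Cfap52: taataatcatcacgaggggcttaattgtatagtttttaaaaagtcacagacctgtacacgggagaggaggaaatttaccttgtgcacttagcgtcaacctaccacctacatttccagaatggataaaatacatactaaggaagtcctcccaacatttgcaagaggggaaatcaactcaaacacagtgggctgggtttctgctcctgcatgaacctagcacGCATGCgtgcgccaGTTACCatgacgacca
The windows differed in base composition. The Mgll window was 68% G or C with 23 CpG, and 86.7% of the 32851 promoter windows of this length held fewer. The Cfap52 window was 44.8% G or C with 7 CpG, and 53.7% of windows held fewer. The 7 motifs searched on both strands were chosen after the windows were read. They were the E-box CACGTG, the GC box GGGCGG, the CCAAT box, the TATA box in the form TATAAA, the palindrome GCATGC, and as 2 forms of a short motif in sites of RFX factors, GTTACC and GTTGCC. Of these, GCATGC was in both windows, at base -231 for Mgll and -30 for Cfap52 counted from the start, and in 6.7% of all windows. The E-box was at -44 for Mgll and in 6.02% of windows. The form GTTACC was at -16 for Cfap52 and in 6.06% of windows. The window of the second Mgll start lacked GCATGC and the E-box, and held GTTACC at -133 and GGGCGG at -121. A match describes the letters only.

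The arrays were on a common scale: the mean without the highest and lowest 2% was 150.001 on each of them, and the array medians ran from 16.9 to 21.6 in intensity units. No detection call was used here, so the array median serves to place low values. Added control RNA was brighter with amanitin, with the 12 poly-A control probe sets averaging 7.85 in untreated and 9.57 in treated BBB (log2), and 7.96 and 9.69 in the BCB groups. Scaling the arrays to these controls moved the median log2 change with amanitin over all genes, from 0.11 to -1.06 for BBB and from 0.17 to -1.01 for BCB. BCB array 1 stood apart from the other BCB arrays: among the 57 other genes called higher in untreated BCB, a set chosen on these same arrays, it was the lowest of the 4 in 44. No pair of arrays held identical values.

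Mgll was read from its brightest tested probe set, 1426785_s_at. In untreated BBB embryos its intensity was 53.2, 34.1, 39.5 and 47.4 on arrays 1 to 4, with a mean of 43.6 ± 8.44 (SD, n = 4). In untreated BCB embryos it was 198.5, 371.5, 361.8 and 406.9, with a mean of 334.7 ± 92.8 (SD, n = 4). All BCB arrays lay above all BBB arrays, as they did for 2.86% of genes, and the BCB mean was 7.68 times the BBB mean. BCB array 1 was the lowest of its group. On the log2(intensity + 16) scale, which shrinks differences between low values, the difference was 2.52 (SE 0.21), and 2.74 without BCB array 1.

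With amanitin the Mgll signal was lower in both kinds. It was 6.1, 2.3, 4.9 and 4.9 in BBB embryos, with a mean of 4.55 ± 1.60 (SD, n = 4). It was 18.2, 35.8, 27.3 and 50.6 in BCB embryos, with a mean of 33.0 ± 13.8 (SD, n = 4). The groups did not overlap, as for 2.01% of genes in this direction, and the log2 difference was 1.21 (SE 0.21). With 1 added in place of 16, the log2 differences were 2.88 untreated and 2.58 with amanitin. The BBB values with amanitin sat between the 14.0th and 27.7th percentile of their arrays and the BCB values between the 46.0th and 68.2nd, so the lower side of this difference rests on dim signal and no ratio of the means is given.

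The second Mgll probe set, 1450391_a_at, gave the same order of groups without amanitin and a much smaller gap with it. Its values were 34.2, 21.4, 27.0 and 36.6 in BBB and 166.5, 317.7, 330.7 and 315.2 in BCB, means of 29.8 ± 6.93 and 282.5 ± 77.6 (SD, n = 4 each), a ratio of 9.48. With amanitin they were 14.4, 12.8, 17.2 and 16.1 in BBB and 23.4, 23.0, 26.0 and 27.7 in BCB, means of 15.1 ± 1.93 and 25.0 ± 2.22 (SD, n = 4 each). The BCB arrays again lay above all BBB arrays in both conditions, as for 2.86% of genes untreated and 2.01% with amanitin. The log2 differences between kinds were 2.67 and 0.40 (SE 0.18), and the first was 2.89 without BCB array 1. With amanitin the log2 difference was thus 1.21 on one probe set and 0.40 on the other. Probe sequences were not used here, so base differences between B6 and C3H under the probes were not looked for, and their part in any difference between kinds was not tested.

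The ratio of the first Mgll probe set to the second, taken within each array, showed unequal change. It ran from 1.30 to 1.59 in BBB, from 1.09 to 1.29 in BCB and from 0.778 to 1.83 in treated BCB embryos. In treated BBB embryos it ran from 0.180 to 0.424, below every other array. There the first probe set read 2.3 to 6.1, under every array's median, so the size of this ratio is not firm.

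The remaining Mgll probe sets showed no such pattern. Both were designed from the same complementary DNA record. Values of 1453836_a_at averaged 16.1 ± 4.76 in BBB and 13.4 ± 3.71 in BCB when untreated, and 8.25 ± 6.64 and 13.2 ± 4.44 with amanitin (SD, n = 4 each), and the kinds overlapped in both conditions. Its log2 difference between kinds was -0.13 without amanitin (95% interval -0.52 to 0.26) and 0.29 with it (-0.10 to 0.68). Probe set 1431331_at was not tested. It stayed between 1.1 and 8.1 on all 16 arrays, under every array's median.

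**Figure D1:**
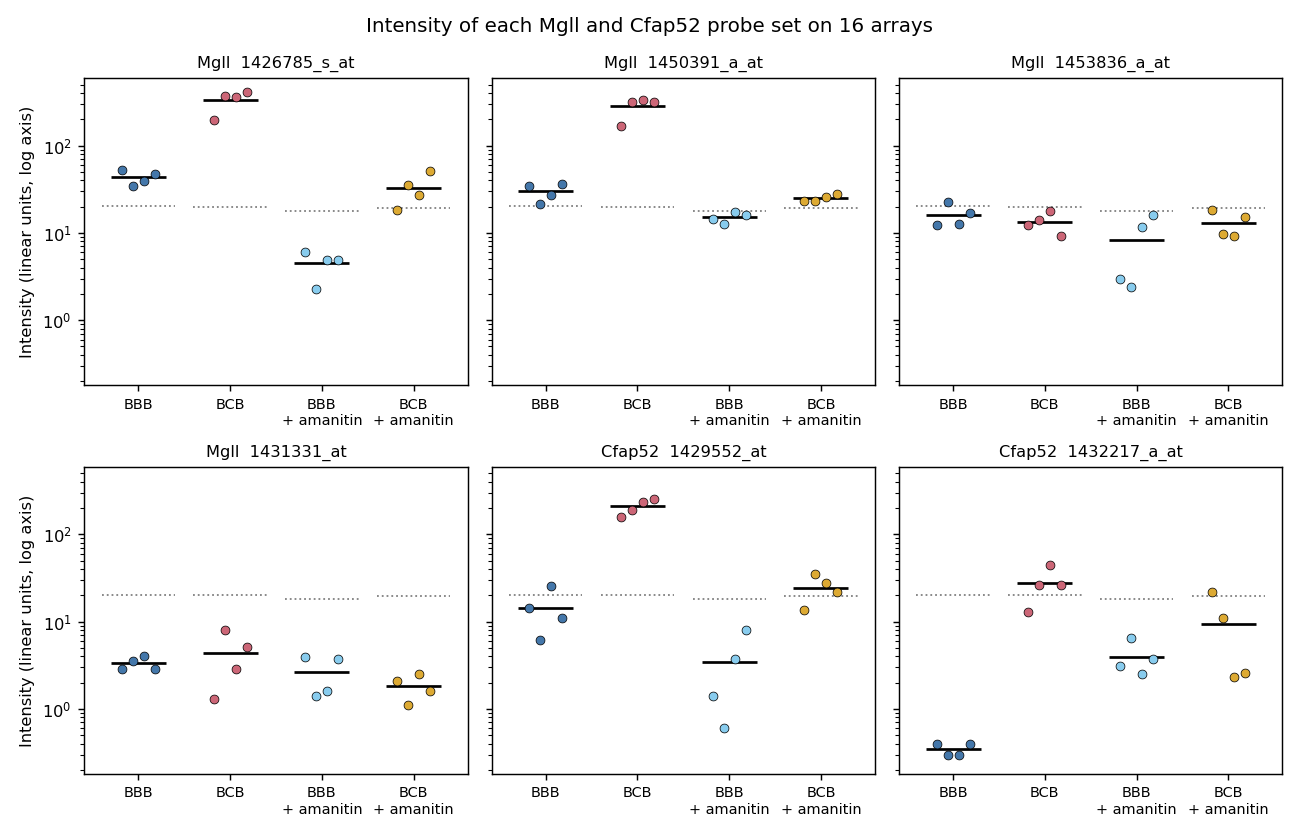
Intensity (linear units on a log axis) of all 6 probe sets of Mgll and Cfap52 on the 16 arrays. Each point is an array, ordered 1 to 4 within its group, the solid bar is the group mean and the dotted bar the mean of the group's array medians. The first 2 Mgll panels and the Cfap52 panel of 1429552_at show BCB above BBB in both conditions, while the other Mgll panels show overlapping groups.

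Cfap52 was read from probe set 1429552_at. In untreated BBB embryos its intensity was 14.4, 6.2, 25.7 and 11.1, with a mean of 14.4 ± 8.28 (SD, n = 4). In untreated BCB embryos it was 157.4, 189.1, 237.4 and 254.2, with a mean of 209.5 ± 44.4 (SD, n = 4). All BCB arrays lay above all BBB arrays, as they did for 2.86% of genes. The BCB mean was 14.6 times the BBB mean, and BCB array 1 was again the lowest of its group. The log2 difference was 2.91 (SE 0.21), and 3.03 without BCB array 1. Most of the BBB values were below their array's median, so Cfap52 was close to the dim end in B6 embryos.

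With amanitin the Cfap52 signal was 1.4, 0.6, 3.7 and 8.1 in BBB, with a mean of 3.45 ± 3.37 (SD, n = 4). It was 13.7, 34.7, 27.6 and 21.8 in BCB, with a mean of 24.5 ± 8.90 (SD, n = 4). The groups did not overlap, as for 2.01% of genes in this direction, and the log2 difference was 1.04 (SE 0.21). All BBB values with amanitin lay at or under the 34.2nd percentile of their arrays, so no ratio of the means is given here either. The BCB values lay between the 39.4th and 62.2nd percentile.

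The second Cfap52 probe set, 1432217_a_at, was dim, with every group mean at or under 27.5. Its values were 0.4, 0.3, 0.3 and 0.4 in BBB and 13.0, 26.2, 44.7 and 26.2 in BCB, and BCB array 1 was once more the lowest of its group. With amanitin they were 3.1, 6.5, 2.5 and 3.7 in BBB and 22.0, 10.9, 2.3 and 2.6 in BCB. The kinds were apart without amanitin, as for 2.86% of genes in this direction, with a log2 difference of 1.36 (SE 0.22, and 1.54 without BCB array 1). They overlapped with amanitin, with a difference of 0.29 (95% interval -0.16 to 0.74). A ratio of its means is not given, as the BBB values were at the very bottom of their arrays.

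Changes with amanitin were tested with limma across all 31953 probe sets. The mean effect over both kinds is orthogonal to the differences that chose the genes, whereas the effect within a kind shares its arrays with them. High untreated BCB values, part of the choice, favour a fall in BCB, and high treated ones work against it. Low treated BBB values, also part of the choice, favour a fall in BBB, and low untreated ones work against it. The sizes and adjusted p-values within either kind are thus not free of the choice, and are given below as a description. Over both kinds, Mgll fell by 2.18 on the log2 scale (SE 0.15, limma adjusted p = 2.07e-12) and Cfap52 fell by 1.55 (SE 0.15, limma adjusted p = 1.02e-09). Both were lower with amanitin, as were 5385 of the 15274 genes (35.3%), so a fall as such was common. Larger or equal falls were seen in 9.6% of genes for Mgll and in 15.0% for Cfap52.

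In BCB embryos Mgll kept 9.85% of its untreated mean and Cfap52 11.7%. Mgll fell by 2.84 (SE 0.21, limma adjusted p = 1.94e-11) and Cfap52 fell by 2.48 (SE 0.21, limma adjusted p = 1.83e-10), and neither gene's groups overlapped. Of all genes, 31.9% were called lower in BCB, and 29.7% had treated arrays all below untreated ones. Without BCB array 1 the changes were -3.06 for Mgll and -2.60 for Cfap52. The second Mgll probe set also fell, with a change of -2.82 for 1450391_a_at (limma adjusted p = 1.84e-12) and groups apart. The change of 1432217_a_at was -0.79 with overlapping groups. It is given with no test, because this probe set passed the filter on low values through its untreated BCB arrays, all 4 of which were over the 40th percentile beside 1 of the other 12. For 1453836_a_at the change was -0.01 (95% interval -0.40 to 0.38).

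In BBB embryos the brightest Mgll probe set kept 10.4% of its untreated mean, and its groups did not overlap. Its treated values were dim, so this share is not firm. The shares kept were 50.8% for 1450391_a_at and 51.2% for 1453836_a_at. On the brightest probe set Mgll fell by 1.53 (SE 0.21, limma adjusted p = 6.64e-07), where 33.1% of genes were called lower and 30.7% had no overlap in that direction. Cfap52 kept 24% of a mean that was already low, and its groups overlapped. It fell by 0.62 (SE 0.21, limma adjusted p = 0.0112), a call that was lost without BBB array 3 (a change of -0.45, limma adjusted p = 0.0627). BBB array 3 held the brightest untreated BBB value, 25.7.

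The other probe sets gave smaller changes in BBB. Probe set 1450391_a_at fell by 0.55 (limma adjusted p = 0.0107) with groups apart. Probe set 1453836_a_at fell by 0.43 (limma adjusted p = 0.0463) with overlapping groups, and this call was lost on leaving out any of 6 single arrays: BBB array 2 or 4, BCB array 1 or 2, or array 1 or 2 of BBB with amanitin. Its change without them ranged from -0.43 to -0.31. Probe set 1432217_a_at changed by 0.28, with intensities of 2.5 to 6.5 against 0.3 to 0.4, all dim. The mean effect of 1453836_a_at was -0.22 (limma adjusted p = 0.129), and passed without array 4 of BBB with amanitin (-0.30, limma adjusted p = 0.0422).

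Scaled to the poly-A controls, Mgll changed by -2.38 in BBB and -4.15 in BCB, and Cfap52 by -1.20 and -3.73. Relative to the median gene under that scaling, the changes were -1.32 and -3.14 for Mgll and -0.13 and -2.71 for Cfap52. Under all 5 scalings tried both genes were lower with amanitin in both kinds. The Cfap52 fall in BBB was thus close to that of the median gene under the poly-A scaling. As each array reads whole embryos in bulk, fewer cells with a transcript and less of it per cell cannot be told apart.

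**Figure D2:**
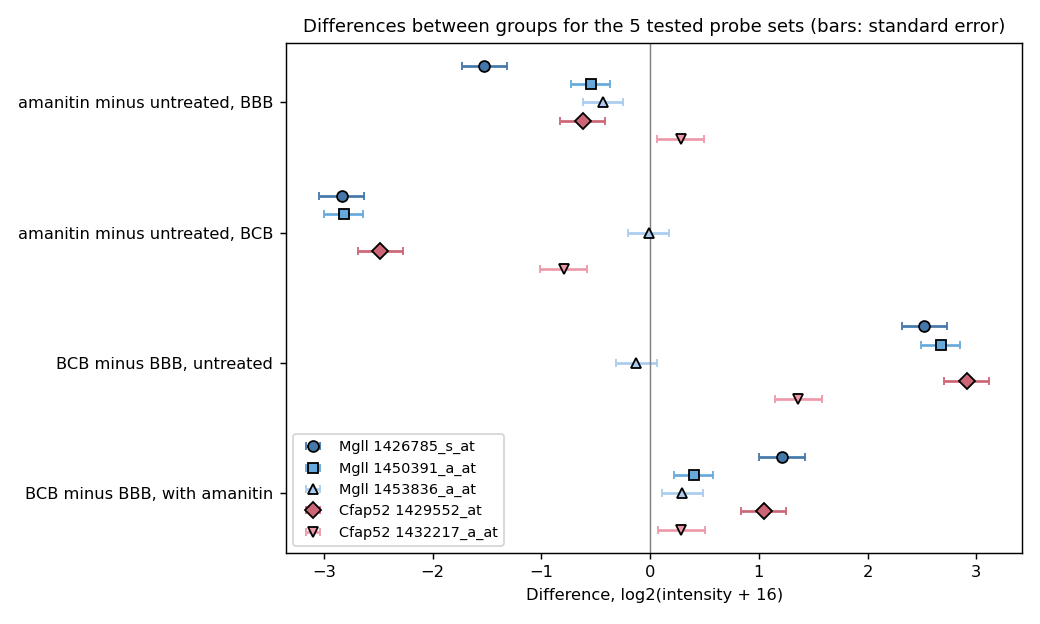
Differences on the log2(intensity + 16) scale for the 5 tested probe sets, by comparison. Symbols are estimates from the 16-array fit and bars are standard errors; Mgll 1426785_s_at and Cfap52 1429552_at lie at -2.84 and -2.48 for amanitin in BCB and at 1.21 and 1.04 for BCB minus BBB with amanitin.

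Set against all genes, 59 were called higher in untreated BCB than BBB (0.386%) and 6 with amanitin (0.0393%). Both lists shared 2 genes (0.0131%), Mgll and Cfap52, and nothing is read from this, since the calls chose them. The number with amanitin moved with single arrays. It was 3 without BBB array 1, 2 or 4 or BCB array 2 or 3, 10 without array 1 of BBB with amanitin, 18 without array 3 of it and 21 without array 4 of BCB with amanitin. Leaving out 11 of the 16 arrays one at a time left 1 gene in both lists, and leaving out BBB array 3, BCB array 1, array 4 of BBB with amanitin, or array 1 or 4 of BCB with amanitin left 2. By range alone, 27 genes (0.177%) had all BCB arrays above all BBB arrays in both conditions.

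Ranked by the smaller of their differences, Mgll was 1st with 1.21 and Cfap52 2nd with 1.04. Leaving out single arrays gave ranks of 1 to 2 for Mgll and 1 to 4 for Cfap52. Mgll was at rank 2 without array 4 of BCB with amanitin. Cfap52 was at rank 1 without that array, 3 without array 2 of BBB with amanitin and 4 without array 2 of BCB with amanitin. With a pseudocount of 1 the ranks of Mgll and Cfap52 were 66 and 1, with one of 64 they were 2 and 4, with probe sets averaged 5 and 4, and under the poly-A scaling 1 and 3. Just outside were Mamdc2 at 0.97, Tceal8 at 0.78 and Prkch, a protein kinase C, at 0.73. Igha, Alad, Fam124a, Celf4, Adcy2, Lce1h and Tmed11 followed at 0.66 to 0.50. The genes just outside were not of one kind. Mamdc2 and Igha were about as far apart with amanitin as without. Mamdc2 differed by 1.05 and 0.97 and Igha by 0.80 and 0.66. Fam124a, Celf4 and the adenylate cyclase gene Adcy2 differed by 3.09, 3.62 and 4.45 untreated and by only 0.59, 0.58 and 0.58 with amanitin. On the log2 scale of the main fit and the probe sets read, Mgll and Cfap52 lay between them. This placing holds for that scale and those probe sets only. With a pseudocount of 1, Mgll differed by 2.88 untreated and 2.58 with amanitin, and Cfap52 by 3.91 and 2.76. On the main scale, Mgll differed by 2.67 and 0.40 on 1450391_a_at, and Cfap52 by 1.36 and 0.29 on 1432217_a_at.

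**Figure D3:**
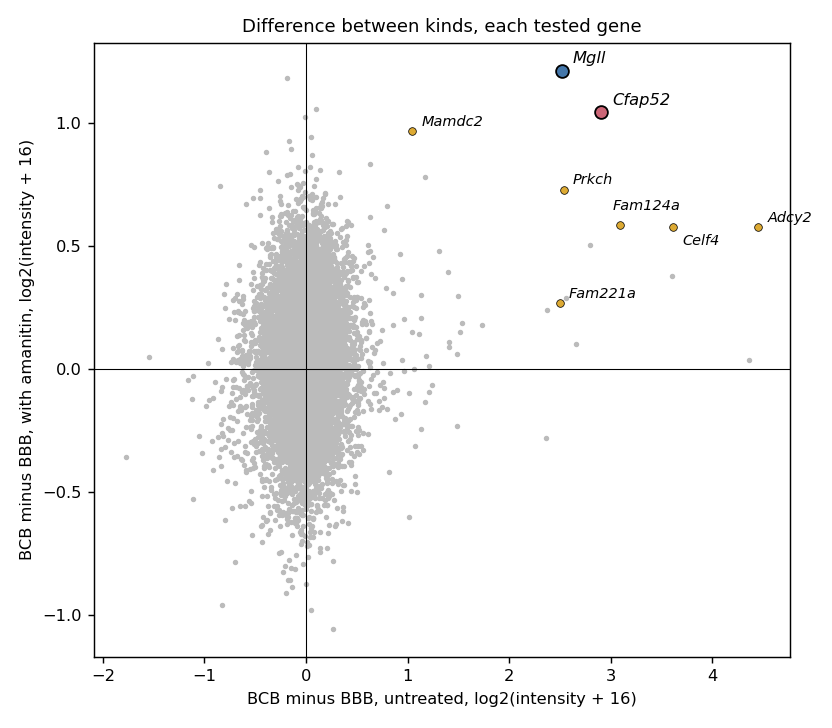
Difference between kinds (BCB minus BBB, log2 of intensity + 16) of each tested gene without amanitin (horizontal axis) and with amanitin (vertical axis). Mgll, at 2.52 and 1.21, and Cfap52, at 2.91 and 1.04, were chosen by these values; yellow points mark 6 other genes named in the text.

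The genes most like Mgll over the 16 arrays, by Pearson correlation of log2 values, were Frrs1 (0.963), Fam221a (0.961), Cfap52 (0.956), Fam124a (0.955) and Oxa1l (0.927). Those most like Cfap52 were Fam124a (0.980), Mgll (0.956), Fam221a (0.952), the glutamate receptor subunit gene Gria1 (0.948) and Tmed11 (0.945). The arrays fall into 4 groups, so these figures mostly describe a shared order of group means. Frrs1 averaged 48.3 in BBB and 314.9 in BCB when untreated, and 18.2 and 25.3 when treated. Its difference between kinds was thus 2.37 untreated and 0.24 with amanitin, smaller with amanitin than that of Mgll. Oxa1l, a mitochondrial membrane insertase gene, differed by 0.41 and 0.60. BCB array 1 was the lowest untreated BCB array in all 6 of the genes most like either one, as it was for Mgll and Cfap52. These genes were picked for likeness on the same arrays, which favours a shared low array.

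Mgll lies on chromosome 6 and Cfap52 on chromosome 11, and none of their named or unnamed neighbours was called between kinds. The 4 nearest tested genes on each side in RefSeq order were read. Over all genes 0.386% were called higher and 0.268% lower in untreated BCB, and 0.0393% higher with amanitin. No call among so few neighbours thus says little about them. Around Mgll, the largest untreated difference was that of Tpra1, -0.40 (SE 0.17, limma adjusted p = 0.577), and with amanitin that of Sec61a1, a translocon subunit, 0.30 (SE 0.12, limma adjusted p = 0.371). The nearest on the other side, Abtb1, differed by 0.05 and 0.18. Around Cfap52, Usp43 and Stx8 flank the gene directly. Usp43 differed by -0.04 and -0.13, and Stx8 by 0.27 and 0.13. The largest neighbour differences there were with amanitin, 0.47 for Pik3r5 (SE 0.16, limma adjusted p = 0.264) and -0.47 for Myh2 (SE 0.26, limma adjusted p = 0.543).

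**Figure D4:**
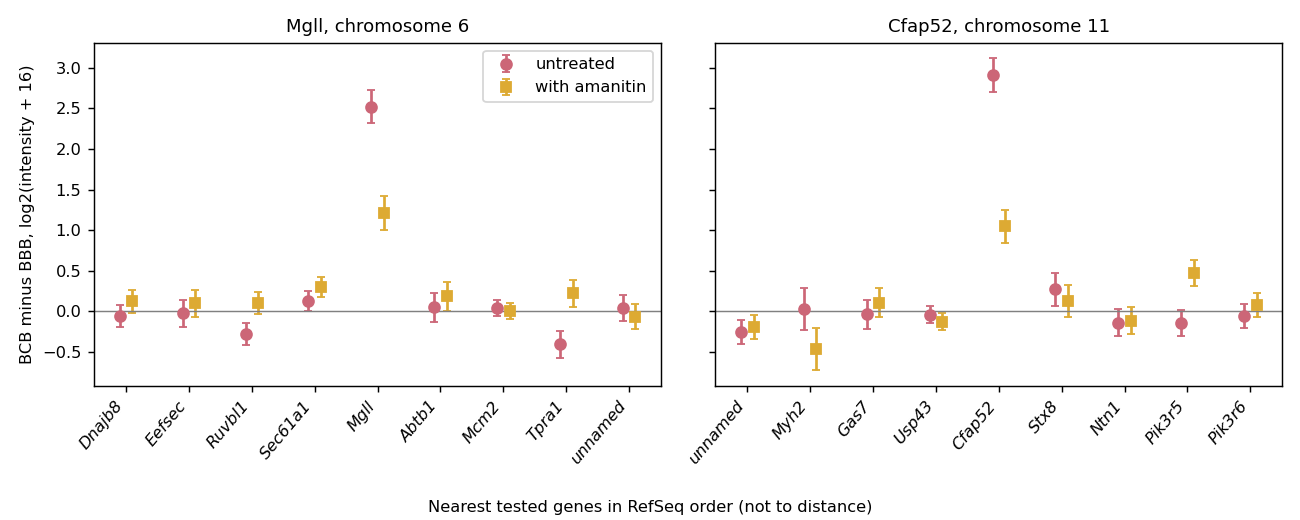
Difference between kinds (BCB minus BBB, log2 of intensity + 16, with standard error) for Mgll, Cfap52 and the 4 nearest tested genes on each side, in chromosomal order and not to distance. Circles are untreated and squares with amanitin; the neighbours lie within -0.47 to 0.47, and Mgll and Cfap52 at 1.04 or above.

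Few genes of any kind passed the test between kinds, and the other genes of both pathways were read beside that share. In 5 lists of 134 genes, 108 were on the array and 93 were tested. In untreated embryos 1 was called higher in BCB and 0 lower, where 0.386% of all genes were called higher and 0.268% called lower, and 7 had an unadjusted limma p under 0.05. With amanitin limma called 0, where 0.0393% of all genes were called higher, with 8 at an unadjusted p under 0.05. At such shares a list of this size is expected to hold few calls or none, so a lack of calls says little about it. The 1 call was Plin2, which encodes the perilipin that coats lipid droplets. Plin2 rose from 631.5 ± 47.6 in BBB to 1157 ± 98.2 in BCB (SD, n = 4 each), a log2 difference of 0.86 (SE 0.13, limma adjusted p = 0.000421). With amanitin it read 149.9 ± 24.7 and 172.1 ± 29.8, a difference of 0.18 (SE 0.13, limma adjusted p = 0.656).

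Among genes that make or degrade monoacylglycerols and endocannabinoids, 11 were tested, and none passed the test between kinds. With amanitin 4 fell in each kind, and 3 rose in BBB and 4 in BCB. Of all genes, 33.1% fell and 37.1% rose in BBB, and 31.9% and 39.9% did in BCB. Under the poly-A scaling 0 rose and 10 fell in BBB, and 0 rose and 9 fell in BCB. Of all 15274 genes, 12088 fell in BBB and 11806 in BCB under that scaling, so most genes of any kind fell. Without that scaling the list had a median of 0.13 and 0.16 beside 0.11 and 0.17 over all genes. Abhd6, another hydrolase of 2-arachidonoylglycerol, fell from 3412 ± 68.8 to 149.1 ± 21.1 in BBB and from 3409 ± 227 to 177.4 ± 19.3 in BCB (SD, n = 4 each). These are log2 changes of -4.38 and -4.15 (limma adjusted p = 5.46e-20 and 8.56e-20), larger than those of Mgll. The lower untreated means of Mgll left less room for a fall on this scale. Abhd12 and Abhd4, hydrolases of related lipids, rose by 1.37 and 0.85 in BBB and by 1.02 and 1.06 in BCB, and lost these calls under the poly-A scaling, where Abhd4 fell in both kinds and Abhd12 in BCB, while Abhd12 in BBB changed by -0.31 (limma adjusted p = 0.117).

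Among genes of lipolysis and lipid droplets, 23 were tested. With amanitin 7 rose and 7 fell in BBB, and 8 rose and 8 fell in BCB, with a list median of -0.17 in both beside 0.11 and 0.17 over all genes. Of all genes, 37.1% rose and 33.1% fell in BBB, and 39.9% and 31.9% did in BCB. With the poly-A scaling 0 rose in either kind, and 21 fell in BBB and 20 in BCB, where 12088 and 11806 of all 15274 genes fell. Plin2 changed by -1.97 and -2.65. Acsl4, which activates long-chain fatty acids, changed by -3.32 and -4.0. Lpin2, a phosphatidate phosphatase, and the fatty acid binding protein gene Fabp5 rose in both kinds, by 1.51 and 1.40 and by 0.82 and 0.86. Under the poly-A scaling Fabp5 fell in both kinds, while Lpin2 changed by -0.18 (limma adjusted p = 0.367) and -0.31 (limma adjusted p = 0.137).

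Among the other microtubule inner proteins, the class to which Cfap52 belongs, 17 were tested and none passed between kinds. Mns1 differed by -0.63 between untreated BCB and BBB embryos (limma adjusted p = 0.0711). In untreated embryos 1 was called lower in BCB with a pseudocount of 64, with probe sets averaged, with only those groups fitted, and without BCB array 1 or array 1 or 4 of BBB with amanitin. With amanitin 7 rose in each kind, and 5 fell in BBB and 4 in BCB. Of all genes, 37.1% rose and 33.1% fell in BBB, and 39.9% and 31.9% did in BCB. Under the poly-A scaling 1 rose and 13 fell in BBB, and 0 rose and 12 fell in BCB. The falls over all 15274 genes were then 12088 in BBB and 11806 in BCB. Efcab6 rose by 2.16 and 2.09, and stayed higher under the poly-A scaling, where its rise in BCB missed the threshold (limma adjusted p = 0.0524). Mns1 changed by -2.20 in BBB and -1.59 in BCB, and Tex43 by -1.86 and -2.13, all called lower. Their falls were larger in BBB than that of Cfap52, from untreated means of 221.6 ± 7.50 for Mns1 and 69.1 ± 14.7 for Tex43 (SD, n = 4 each).

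Of the genes for the arms, spokes and bridges of motile cilia, 33 were tested. With amanitin 10 rose and 8 fell in BBB, and 13 rose and 8 fell in BCB. The shares over all genes were 37.1% and 33.1% in BBB, and 39.9% and 31.9% in BCB. Scaled to the poly-A controls, 0 rose and 28 fell in each kind, where 12088 of all 15274 genes fell in BBB and 11806 in BCB. None passed between kinds, but 2 were called higher in BCB with amanitin without array 4 of that group. The outer arm dynein genes Dnah11 and Dnah9 rose by 1.25 and 1.18 in BBB and by 1.24 in BCB each, and fell under the poly-A scaling. Dnaaf2, a dynein assembly factor, fell, with changes of -3.22 and -3.68. Of the 9 tested regulators of motile cilium genes, 8 rose in each kind, with a median of 0.95 and 0.88, where 37.1% and 39.9% of all genes rose. Under the poly-A scaling 1 rose in BBB and 2 in BCB, and 3 fell in each, where 233 and 216 of all genes rose. Rfx2, a factor of multiciliated cells, rose by 2.08 and 2.04, while E2f5 rose by 0.81 and 0.82 and fell under the poly-A scaling.

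Markers of cells a sample could hold were read in 5 lists: cumulus and granulosa cells, oviduct epithelium, sperm, adipocytes, and the oocyte and two-cell embryo. Between kinds limma called 0 of their genes without or with amanitin. At an unadjusted p under 0.05 there were 2 genes without amanitin and 6 with it, of 38 tested. Summed over 9 of 10 oviduct markers, the level was 622.4 to 784.2 in BBB and 651.2 to 843.9 in BCB; Epcam alone averaged 445.8 and 523.8. With amanitin it was 420.8 to 436.4 and 327.9 to 536.5. Foxj1, the defining factor of ciliated cells, stayed between 1.6 and 24 over the 16 arrays. The 6 adipocyte markers on the array summed to 92.9 to 131.3 in BBB and 79.3 to 107.7 in BCB. Sperm-carried markers summed to 61.2 to 136.0 in BBB and 72.3 to 96.6 in BCB. The 11 cumulus and granulosa markers on the array summed to 2080 to 2466 in BBB and 2331 to 2727 in BCB, nearly all from Amhr2, at 2086 and 2410 on average. With amanitin this list summed to 356.3 to 433.3 in BBB and 400.4 to 437.5 in BCB, and Amhr2 averaged 58.9 and 59.4. Of its 8 tested genes, 5 rose and 1 fell with amanitin in BBB, and 4 rose and 1 fell in BCB. Over all genes, 37.1% rose and 33.1% fell in BBB, and 39.9% and 31.9% did in BCB. Oocyte and two-cell embryo markers summed to 19093 to 22275 in BBB and 19500 to 21131 in BCB, so the markers of the labelled stage were present. With amanitin they summed to 17787 to 18877 in BBB and 15926 to 16517 in BCB, which did not overlap. What part these differences or other cells had in the signal was not tested.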

How the data were processed

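Per the labels, RNA of 16 mouse two-cell embryo samples was extracted by Picopure, labelled with biotin through an ENZO kit and measured on one-colour arrays. The deposited values are intensity on a linear scale, 1 per probe set. What software and scaling the authors used was not given in the sources used here. From these values log2(intensity + 16) was computed, and 1 fit over 16 arrays with a mean per group was made in limma 3.58.1 (R 4.3.3), with a trend in the variance by intensity; calls needed an adjusted p under 0.05 (Benjamini-Hochberg, 31953 probe sets). The pseudocount of 16 understates changes of dim genes. Probe sets were named from the platform annotation, with 34945 under 1 symbol, 932 under several and 9160 under none; the last were tested but not counted as genes. Each gene took the values of whichever tested probe set was brightest on average.

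Mgll and Cfap52 and all gene lists were chosen with earlier results of these data known. Genes were named by a rule: all member probe sets; per list, the brightest gene and the most significant call up and down; the 5 most correlated genes; the 10 largest smaller differences; and 4 neighbours per side. Clone and predicted names were counted but not named. Nothing says that replicates came from separate collections, so p-values measure the spread between these samples. Whether equal replicate numbers mark paired samples was not given, and the main fit used no pairing. Of 16 correlations between same-numbered arrays, 1 passed 0.1. Low correlations cannot show that the samples were unpaired. Precision is limited by 4 arrays per group. On simulated data for amanitin against untreated in BBB (31953 probe sets, 100 changed by each size), the fit recovered 78.0% of changes of 1 and 100% of 2 on the log2 scale. Far more were called in the real comparison, so this recovery holds for the simulated setting only. Alternatives covered scaling, pseudocount, filter, trend, probe set choice, block, samples and single arrays.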

Additional observations from a re-analysis of the deposited data

Results flagged for a closer look

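On the second Mgll probe set, 1450391_a_at, untreated BCB array 1 read 166.5, far from the 315.2 to 330.7 of the other 3 BCB arrays. The gap was 0.906 of the range, above Dixon's 95% critical value for 4 samples. This was 1 of 24 groups of 4 arrays examined, and chance alone sets apart about 1 in 20. The same array was the lowest of its group on 1426785_s_at at 198.5, on 1429552_at at 157.4 and on 1432217_a_at at 13.0, though not by that margin. Whether it reflects the embryos or the array was not tested.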

How the results depend on the processing

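Mgll and Cfap52 stayed higher in BCB, and lower with amanitin, under every alternative run, but sizes moved. With a pseudocount of 1 or 64 or with probe sets averaged per gene, the untreated difference was 2.88, 1.86 and 1.69 for Mgll and 3.91, 1.79 and 2.14 for Cfap52. With amanitin it was 2.58, 0.49 and 0.64 for Mgll and 2.76, 0.39 and 0.67 for Cfap52, and 0.81 and 0.67 under the poly-A scaling. The Cfap52 fall in BBB missed the threshold with a pseudocount of 64 (-0.21, limma adjusted p = 0.086) and the mean of probe sets (-0.17, limma adjusted p = 0.374), and ranged from -0.76 to -0.45 on leaving out single arrays.

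Under the poly-A scaling Abhd4 changed by -0.86 in BBB and -0.66 in BCB, Abhd12 by -0.31 and -0.68, Fabp5 by -0.89 and -0.86, Lpin2 by -0.18 and -0.31, Dnah9 by -0.49 and -0.44, Dnah11 by -0.39 and -0.41 and E2f5 by -0.90 and -0.91. Genes called higher with amanitin numbered 3266 in BBB and 2362 in BCB under the hybridization-control scaling and 233 and 216 under the poly-A scaling. Genes called lower numbered 12088 in BBB under the poly-A scaling, and 7319 and 11806 in BCB under the hybridization and poly-A scalings.

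Genes higher in untreated BCB numbered 31 and 99 with pseudocounts of 1 and 64, and 98 when only those groups were fitted. With amanitin limma called 0 under the hybridization scaling, the poly-A scaling and only those groups, 2 without the trend, 3 with the mean of probe sets, and 3 to 21 on leaving out single arrays. Genes called in both numbered 1 with quantile normalization, median centring, a pseudocount of 1, no filter, no trend and the mean of probe sets, 0 under the control scalings and a pseudocount of 64, and 1 to 2 on leaving out single arrays. Fitting only the groups compared gives no separate value for the mean effect or this count. With the replicate number as a block, Mgll fell by 1.53 in BBB (limma adjusted p = 1e-06) and Cfap52 by 0.62 (limma adjusted p = 0.00844), genes called higher in treated BCB than treated BBB embryos numbered 4, and the call of 1453836_a_at in BBB was lost (limma adjusted p = 0.0605). The causes were not tested. Signal near the array median, with no detection call used here, limits every ratio with amanitin.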
